A study of Mus musculus with 2 samples.

Results

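Full-length cDNA clones are copies of whole messenger or non-coding RNAs, read into the sequence databases before a curated gene model existed for many of them. In the mouse, accessions that begin with AK come largely from the RIKEN full-length enriched libraries of the FANTOM projects, which captured capped transcripts from many tissues and stages. Such clones include protein-coding messages, alternative ends of known genes and long non-coding RNAs. A microarray probe that carries an AK accession was therefore designed on a clone, while a probe with an NM_ accession was designed on a curated RefSeq mRNA.

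Members were the non-control probes whose systematic name is AK followed by digits. There were 2408 of them among 55680 non-control probes, on 2366 clones. The files pair these probes with an accession and no gene, and the RefSeq table used for names held 0 of the 2366 accessions, so clones are called by accession and no gene name is attached to any of them. Whether a clone is coding, and where it lies in the genome, was not analysed here.

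Total RNA of mouse heart was hybridised to 1-colour Agilent arrays, 1 array for each of 2 groups. The control group was C57BL6 with no allele named. The other group, labelled with a C57BL6 strain background too, carried the transgene Tg (CAG-WRN*K577M) 5025Wcl/Mmmh on B6.Cg, and its array is called transgenic here and WRN-K577M in the plots. In this transgene the broadly active CAG promoter drives WRN with a substitution in its helicase domain, so that expression is not meant to be limited to heart muscle cells. Age, sex, the number of hearts behind each RNA and the meaning of ND in both sample titles are not given in the sources used here. WRN is a RecQ family DNA helicase that is lost in Werner syndrome, a disease of premature ageing, and the study set the groups side by side to look at signalling in cardiac remodelling.

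Levels are log2 processed signals minus the log2 of each array's 75th percentile (256 in the control and 210 in the transgenic array). A log2 ratio is transgenic minus control. A probe is called measured where the scanner software flagged it as well above background in each heart. Since each group had 1 array, the differences have no replicate check and carry no p-value, and genotype cannot be told apart from anything else that differed between the samples. Of all probes, 55.2% in the control and 52.9% in the transgenic heart were well above background. All 10 cardiomyocyte markers were measured, with log2 ratios between -0.16 and 0.25. Across 7 lists for atrium, lung, fat, macrophages, neutrophils, red cells and fibroblasts, all 29 measured members had a ratio below 0, from -9.41 to -0.06, and 25 were at least 2-fold lower. Among all 28654 measured probes, 42.4% had a ratio below 0 and 2.51% were at least 2-fold lower. The lists were chosen with earlier results of these data known, so these counts are a description and no independent check. On the log2 scale, the signal summed over a list's members with a probe was 7.03 in the control and -1.08 in the transgenic heart for 8 lung markers, 9.36 and 7.29 for 6 atrial markers, 4.74 and 1.68 for 7 adipocyte markers, and 5.38 and 0.47 for 5 neutrophil markers. It was 4.80 and 4.02 for 6 macrophage markers, 9.68 and 7.59 for 4 erythroid markers, and 7.89 and 7.66 for 5 fibroblast markers. Scgb3a2 (lung), Lep (fat) and Ngp (neutrophils) were not well above background in either heart. Of the 5 endothelial markers 3 were lower and 2 higher, none by 2-fold, and of the 8 measured members of a list of 12 known long non-coding RNAs 4 were lower and 4 higher, with Neat1 (1.02) the sole one at least 2-fold different. What part these differences in tissue markers have in the ratios of the clones was not tested. In bulk RNA, fewer cells of a type and less RNA per cell cannot be told apart.

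The clones were detected less often than curated mRNAs and, where detected, were dim. In the control heart 1109 clone probes (46.1%) and in the transgenic heart 1077 (44.7%) were well above background, against 70.4% and 67.7% of 26731 NM_ probes. A total of 1016 clone probes (42.2%) were measured, and 1238 (51.4%) were well above background in neither heart. The classes outside the curated mRNAs ranged widely: 32.8% of the long intergenic RNA probes and 35.7% of the NR_ probes, which stand for curated non-coding RNAs, were measured, as were 51.0% of the probes on Ensembl-only transcripts and 62.3% of the probes on BC clones, a further collection of cDNA clones, against 66.8% of NM_ probes. The mean level of the measured clone probes had a median of -1.81 with quartiles of -3.02 and -0.26, and 77.8% lay below 0, against a median of 0.39 and 44.6% below 0 for NM_ probes. Levels on the 2 arrays correlated across the measured clone probes with a Pearson r of 0.978, a description over probes that share both arrays.

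Most measured clones were near equal between the hearts, and the clones as a group leaned towards the transgenic heart. Of the 1016 measured probes, 801 (78.8%) lay within 1.5-fold, 696 (68.5%) had a ratio above 0 and 320 (31.5%) below 0. All measured probes of the array leaned the same way but less, with 57.6% above 0 and 42.4% below 0. Measured NM_ probes, here not weighted by level, lay within 1.5-fold more often (84.5%). The median log2 ratio was 0.175, with quartiles of -0.084 and 0.432. Over all 28654 measured probes of the array the median was 0.064, and over the 17854 measured NM_ probes it was 0.020. The distance of each array's values from 0 depends on the scaling, which alone added 0.288 to every log2 ratio, so the clones were set against probes of the same brightness.

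NM_ probes were weighted so that each 0.5-wide range of mean level counted for as many NM_ as clone probes. Against these equally bright probes the clones had a like spread and another centre. The interquartile range of the log2 ratio was 0.516 for the clones and 0.528 for equally bright NM_ probes, a ratio of 0.977. With no filter on dim probes the ranges were 0.489 and 0.639, a ratio of 0.766. The median was 0.175 against 0.018, a difference of 0.157, and the share below 0 was 31.5% against 48.1%. Both tails lay higher too, the lower tail by more than the centre. The 5th and 95th percentiles were -0.532 and 0.952 for the clones and -0.910 and 0.761 for equally bright NM_ probes. This difference between medians was 0.074 after normexp background correction, whose offset draws the values of dim probes together, and 0.072 with no filter on dim probes.

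**Figure D1:**
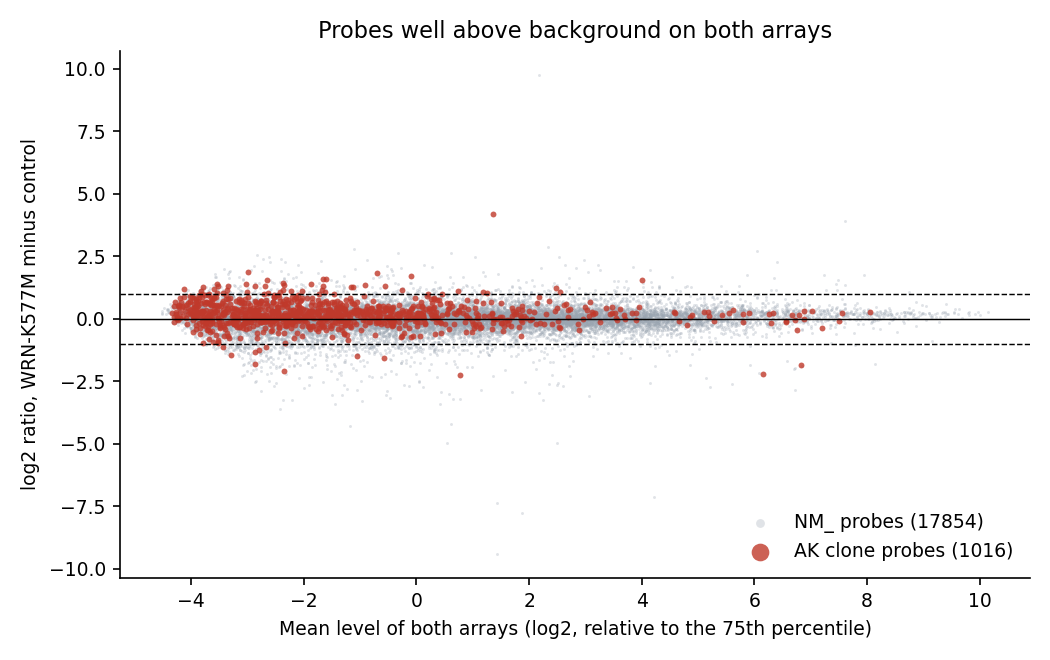
Log2 ratio (WRN-K577M minus control, vertical axis) against the mean level of both arrays (log2, horizontal axis) for 1016 probes on AK clones (red) and 17854 NM_ probes (grey), all well above background on both arrays, 1 point per probe, with dashed lines at 2-fold. The clones crowd at levels below 0, 1 of them stands alone at a ratio of 4.17, and the long tail of strongly lower NM_ probes holds few clones.

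The lean was present at low and at middling levels. In 9 ranges of mean level, each 1 log2 unit wide and holding at least 20 clone probes (981 of the 1016), the median of the clones was above that of NM_ probes in all 9, by 0.050 to 0.216. Between -2 and -1, 187 clone probes had a median of 0.192 and 2036 NM_ probes of -0.023, with 28.9% and 52.8% below 0. In the dimmest range, from -5 to -4, both classes leaned upwards, with medians of 0.335 and 0.285. The lowest level that counted as well above background was -4.73 in the control and -4.42 in the transgenic array, and the part of these unequal limits in the ratios of the dimmest probes was not tested. Spread differed in no steady way: the interquartile range of the clones was the wider in 4 of the 9 ranges. The ranges that differed most held few clones: at 2 to 3 (27 clone probes) it was 0.703 against 0.381, and at 3 to 4 (21 clone probes) 0.257 against 0.402. At -4 to -3 (220 clone probes) it was 0.706 against 0.675, and at -3 to -2 (223) 0.558 against 0.628. In the 5 brightest ranges, with 35 clone probes in all, the differences had both signs, from -0.20 at levels 6 to 7 (13 clone probes) to 0.120 at 4 to 5 (7 clone probes).

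**Figure D2:**
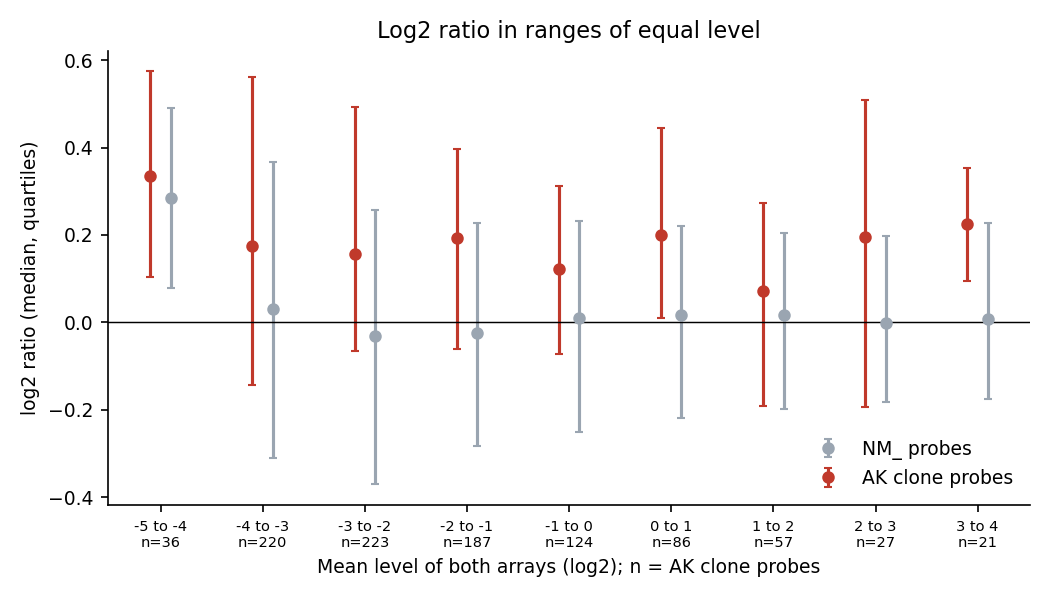
Median log2 ratio (points) with the lower and upper quartile (bars) in 9 ranges of mean level, for AK clones (red) and NM_ probes (grey), n being the number of clone probes. The red points lie above the grey ones in all 9 ranges, by 0.050 to 0.216, and the bars differ most in length at 2 to 3 (red longer) and 3 to 4 (grey longer).

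The upward lean was shared with other probes that do not stand on a curated mRNA. Weighted to the levels of the clones in the same way, the median log2 ratio was 0.137 for 556 measured NR_ probes, 0.125 for 5314 long intergenic RNA probes, 0.106 for 1508 probes on Ensembl-only transcripts and 0.120 for 149 probes on BC clones. The median of the AK clones exceeded these by 0.038, 0.050, 0.070 and 0.055. The pooled SD of the log2 ratio between spots of a probe, 0.125 over 269 probes printed at 6 or more spots, is given for scale. It describes a probe and not a median over many. NM_ probes had the lowest and AK clones the highest of these medians, an order that was not tested.

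At a threshold of 2-fold the clones had more probes on the higher side than on the lower. Of the 1016 measured, 43 probes on 42 clones (4.23%) were at least 2-fold higher in the transgenic heart, against a background of 2.19% of all measured probes. On the lower side stood 12 probes on 12 clones (1.18%), against a background of 2.51%. Equally bright NM_ probes had 2.25% higher and 4.14% lower. Of the 55 clone probes at least 2-fold different 78.2% were higher, whereas of 896 such NM_ probes, here not weighted by level, 36.5% were. The nearest probes inside the threshold had ratios of 1.01 and -1.13, and the nearest outside had 1.00 (just below the threshold before rounding) and -0.99. Most of these probes were dim, 36 of the 43 higher and 9 of the 12 lower having a mean level below 0. This is near the share among all measured clone probes (77.8%). After normexp 7 (0.689%) and 4 (0.394%) remained, all 11 of them among the 55. Equally bright NM_ probes then had 0.389% and 0.773%. With mean levels above -2 alone the numbers were 20 (3.72%) and 5 (0.931%), against 1.60% and 3.62% of equally bright NM_ probes. At 3-fold 5 clone probes were higher and 5 lower, counts that stand without a share of other probes beside them. The NR_, Ensembl-only and long intergenic classes were split in the same direction, with 4.84% higher and 2.17% lower for NR_ probes, 3.23% and 1.32% for Ensembl-only transcripts and 2.79% and 0.846% for long intergenic RNAs, all weighted to the clones' levels. BC clones had 3 probes higher and 3 lower of 149, which weighting turned into 3.30% and 2.72%.

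**Figure D3:**
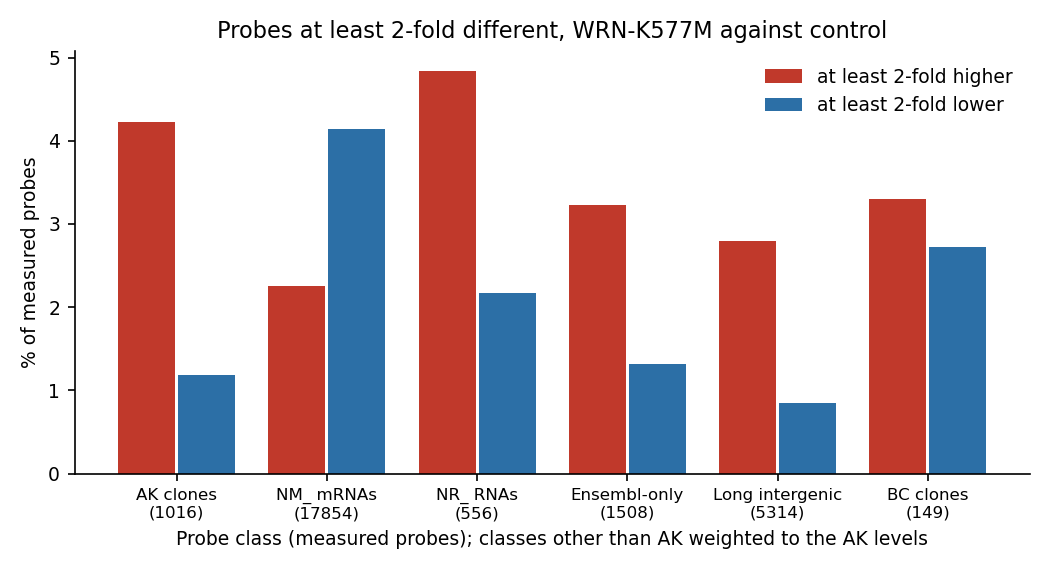
Share of measured probes (vertical axis, percent) at least 2-fold higher (red) or lower (blue) in the transgenic heart, by probe class, the classes other than AK being weighted to the levels of the AK clones. The clones have 4.23% higher and 1.18% lower, and the NM_ probes, with 2.25% and 4.14%, are the sole class with the longer blue bar. The BC bars rest on 3 probes each, equal before weighting.

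AK087890 lay far above the rest. Its probe read -0.73 in the control and 3.44 in the transgenic heart, a log2 ratio of 4.17 (18.0-fold) with a software error of 0.21. Among all 28654 measured probes it ranked 2, below a probe on the ribosomal protein gene Rps2 (9.76) and above Myh7 (3.91), the slow beta-myosin heavy chain. It kept a ratio of 3.63 after normexp and between 4.12 and 4.17 under the other scalings and normalizations. The value rests on 1 probe printed at 1 spot.

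After AK087890 the higher clones came close together. AK138162 stood at -3.91 in the control and -2.05 in the transgenic heart (log2 ratio 1.86), and AK085126 at -1.62 and 0.22 (1.85). AK005275 stood at -0.96 and 0.76 (1.72). After normexp the ratio of AK138162 was 0.70, under 2-fold, while those of AK085126 and AK005275 were 1.30 and 1.38. AK017236 was the brightest of the 10 with the highest ratios, at 3.24 and 4.79 (1.55), and had 1.48 after normexp. The remaining 5, AK013327 (1.59), AK136853 (1.58), AK033518 (1.53), AK046028 (1.43) and AK039541 (1.40), had control levels between -3.72 and -2.40. All 5 fell short of 2-fold after normexp, with ratios from 0.52 for AK039541 to 0.95 for AK136853.

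Among the lower clones 2 were bright on both arrays. AK080285 stood at 7.26 in the control and 5.04 in the transgenic heart (log2 ratio -2.22, or -2.30 after normexp). AK146780 had 7.74 and 5.91 (-1.84, or -1.82 after normexp). At those levels the error estimated by the software was 0.20 for each. The erythroid markers Hba-a1 (9.04 and 7.24) and Hbb-bt (8.13 and 5.29), subunits of haemoglobin, were lower in the same heart, and the part of red cell RNA in the ratios of these clones was not tested. AK076353, with the lowest ratio of all clones, had 1.89 and -0.35 (-2.24), and AK016494 had 0.22 and -1.36 (-1.58, or -1.15 after normexp). AK133032 (-2.09), AK006919 (-1.82), AK033778 (-1.50), AK157330 (-1.45), AK028718 (-1.34) and AK078317 (-1.25) completed the 10 lowest. They lay between -2.56 and -0.30 in the control and between -4.01 and -1.80 in the transgenic heart, and after normexp their ratios ran from -0.81 to -0.27.

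**Figure D4:**
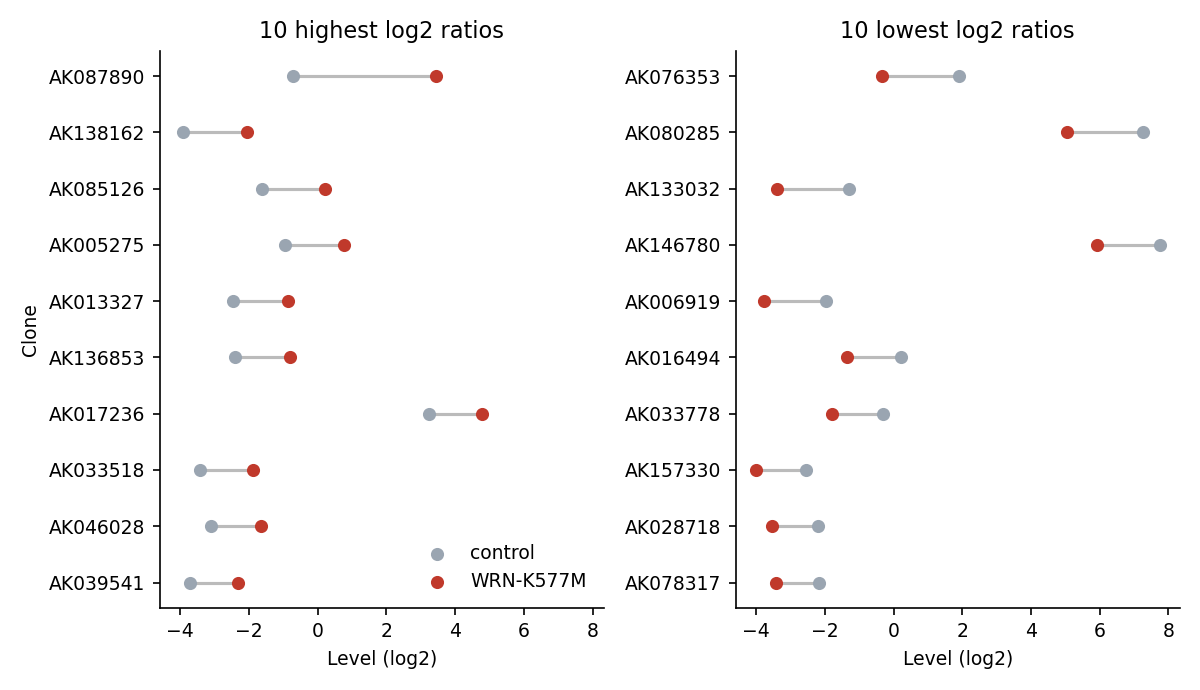
Level (log2, horizontal axis) on the control (grey) and transgenic array (red) of the clones with the 10 highest (left) and 10 lowest (right) log2 ratios, 1 array per group, with a line joining the 2 levels of a clone. AK087890 has the longest line, from -0.73 to 3.44, and AK080285 and AK146780 are the 2 bright clones on the lower side.

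The clones with the highest mean level were near equal between the hearts. AK136409 had 7.91 in the control and 8.19 in the transgenic heart, AK141242 had 7.44 and 7.66, and AK146304 had 6.86 and 7.18. AK203298 had 7.39 and 7.01 (log2 ratio -0.38). AK132033 was read by 2 probes, with levels of 7.53 and 7.46 by one and 6.76 and 6.70 by the other, and ratios of -0.076 and -0.061.

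A further 154 clone probes were well above background on 1 array only, 93 on the control and 61 on the transgenic array. The transgenic array thus held 39.6% of them, against 19.7% of 1192 such NM_ probes and 27.9% of 2874 such probes overall. For these probes the ratio is a bound, taken against the higher of the probe's own dim level and the lowest level well above background on that array. This lowest level was -4.73 in the control and -4.42 in the transgenic array. Bounds on the transgenic side can thus be larger than those on the control side through this limit alone. On the transgenic side 25 of 61 clone probes (41.0%) had a bound of at least 2-fold, against a background of 29.8% of all such probes. On the control side 4 of 93 (4.30%) did, against a background of 12.7%, and 25 of the 93 gave no fold. AK020208 stood at -2.83 in the transgenic heart, at least 3.74-fold higher, and AK031395 at -2.91, at least 3.53-fold higher. AK155210 stood at -2.82, 3.45-fold above its own dim level in the control. In the other direction AK034922 had -2.14 in the control, 3.78-fold above its own dim level in the transgenic heart. For AK155210 and AK034922 the bound is thus the plain ratio to a level not well above background. AK138519 had -2.79 in the control, at least 3.10-fold lower in the transgenic heart, and AK038006 had -2.85, at least 2.98-fold lower. The dim levels of AK155210 (-4.61) and AK034922 (-4.06) lay above the lowest level well above background on the same array. That level is thus no strict limit of detection, and a fold given with at least holds against that level alone.

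Clones read by more than 1 probe give a check within these arrays. Of the 2366 clones, 38 had 2 probes and 2 had 3. In 8 of these 40 clones all probes were measured, in 14 none was well above background on either array, and in 17 the probes differed in detection. In the 1 other, AK006699, both probes were well above background in the control only. For 9 clones 2 probes were measured, and in all 9 the probes lay on the same side of 0, with log2 ratios that differed by 0.002 to 0.40 (median 0.049). In some of these pairs a ratio lay within 0.051 of 0, the shift that the scaling of the deposited matrix made, so their side depends on the scaling. Over 2744 NM_ accessions with 2 measured probes the median difference was 0.145, and 76.1% had both on the same side. AK043445 was at least 2-fold higher by both its probes: the levels were 0.65 and 1.71 by one (1.06) and 0.74 and 1.76 by the other (1.02). Both ratios lay close to the threshold, and neither probe stayed at least 2-fold higher under all 7 settings that change the values or the spots used. For AK139292 the ratios were 0.261 and 0.258. The probes of AK042062 differed most, with 0.437 for a probe at 0.83 and 1.27 and 0.837 for one at -4.61 and -3.77, close to the limit of detection. Those of AK040705 had 0.325 and 0.023, and the 2 measured probes of AK167004 had -0.105 and -0.232. For AK040705 and AK167004 the ratio nearer 0 changed sign after normexp. The values were then -0.04 for the second probe of AK040705 and 0.04 for the first of AK167004, so these pairs no longer shared a side. The second probe of AK040705 also changed sign with the median of all probes (-0.02) and the deposited matrix (-0.03). Probes of a clone share its sequence and both arrays, so they check the measurement and not the difference between genotypes.

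**Figure D5:**
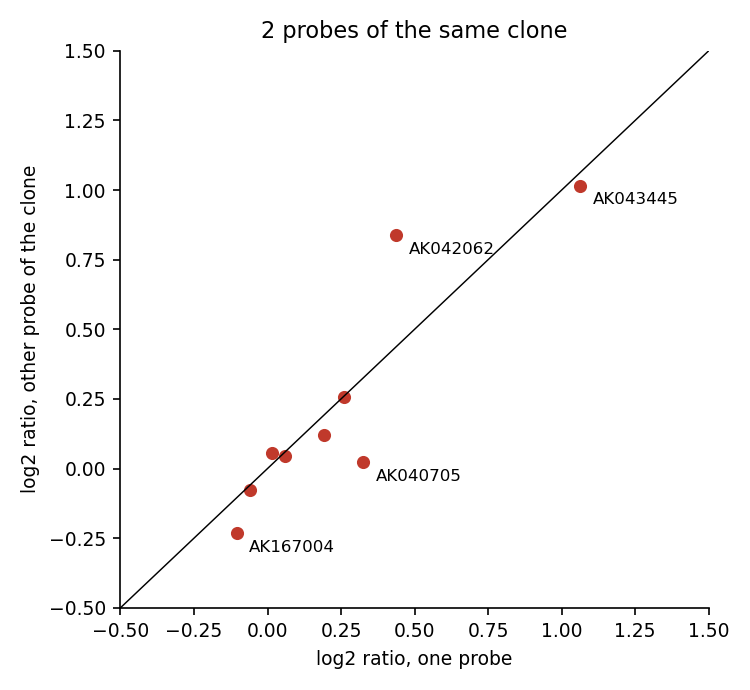
Log2 ratio of one probe (horizontal axis) against that of the other probe (vertical axis) for the 9 AK clones with 2 measured probes, with the line of equality. The points follow the line, AK043445 with both probes above 1, and AK042062 and AK040705 lie farthest from it.

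AK018620 was the sole clone printed repeatedly, at 10 spots. Its level ran from -2.06 through a median of -1.75 to -1.53 in the control and from -2.21 through -2.07 to -1.97 in the transgenic heart. The log2 ratio was below 0 at 10 of 10 spots, with a mean of -0.29 and an SD of 0.138 between spots. For 29 repeatedly printed NM_ probes within 0.5 of its mean level, the SD between spots had a median of 0.147 and a range of 0.067 to 0.284. The SD of the clone's spots lies inside that range. The error that the software attached to a log2 ratio had a median of 0.217 over the measured clones, and the ratio exceeded 2 such errors for 277 of them (27.3%), 218 higher and 59 lower, against 24.3% of NM_ probes, 2029 higher and 2310 lower. All 55 clone probes at least 2-fold different exceeded 2 errors, as did all 896 such NM_ probes. The errors of the 55 ran from 0.20 to 0.38, so any 2-fold ratio among them had to exceed 2 errors. This count therefore says nothing about the 55. These errors cover the measurement on an array and not the spread between hearts.

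The accession numbers fall into 4 series with gaps between them. The lean was alike in each. The median log2 ratio was 0.172 over 224 measured probes from AK002255 to AK021392, 0.167 over 317 from AK028026 to AK054449, 0.199 over 172 from AK075572 to AK090265 and 0.173 over 303 from AK122315 to AK220451. Detection differed more, from 36.0% measured in the first series to 47.9% in the third. Probes at least 2-fold higher and lower numbered 9 and 3, 18 and 2, 5 and 4, and 11 and 3 in that order. The second series held the highest share of higher probes, 5.68%, and the third the lowest, 2.91%.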

How the data were processed

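The scanner files hold Cy3 intensity values extracted with Agilent Feature Extraction (version 11.5.1.1), per the submitters' processing notes. The processed intensity had its background subtracted and was detrended by that software, with no scaling across arrays, per the file headers, and other columns hold its 0 or 1 flags. The deposited series matrix is the processed intensity times 1 factor per array, 4.12 and 4.86, checked over 59305 spots (column medians 79.5 and 79.0), so its scale is linear, uncentred, and the basis of the factors is not stated in the sources used here. The design is annotated on mm9, per the file headers, and no coordinates are used.

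Control spots and 257 outlier spots, none of them on a clone, were left out. No spot was saturated. The 2 arrays share 1 scan, per the file headers. Log2 processed signals minus the 75th percentile were averaged over the spots of a probe, and a probe was well above background when over 0.5 of its spots carried that flag. Of all probes, 28330 were named through RefSeq accessions of the GRCm38.p6 assembly, which served for marker genes. NM_ and other probes were weighted to the clones' levels in bins of 0.5, with no random draws, and this was tested on simulated data. Named clones were the 10 with the highest and 10 with the lowest ratio, the 3 largest bounds in each direction, the 5 with the highest mean level, and the 3 whose probes differed most. Parts of the rule that need gene names of clones could not be applied. AK006699, AK018620, AK043445 and AK139292 were named after their values were seen. The members and lists were chosen with earlier results of these data known. Alternatives were normexp (offset 50) on the median spot and background intensity, quantile normalization, cyclic loess, 2 further scalings, filters, thresholds, bins and the deposited matrix. Python 3.11.15, numpy 2.4.6, pandas 2.3.3, R 4.3.3 and limma 3.58.1 were used. With 1 array per group, the number of arrays limits the precision.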

Additional observations from a re-analysis of the deposited data

How the results depend on the processing

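The centre of the clones was steadier than the counts. The median log2 ratio lay between 0.124 (deposited matrix) and 0.189 (normexp) under the alternatives that kept the detection filter, and was 0.346 with no filter on dim probes. Over all measured probes no scaling moved the median by more than 0.051. The distance to equally bright NM_ probes, an alternative added after seeing the data, was 0.125 when matched on the control level and 0.180 when matched on the transgenic level, 0.152 with quantile normalization and with cyclic loess, 0.074 with normexp and 0.072 with no filter. The median of the equally bright NM_ probes itself changed sign, to -0.020 with cyclic loess, -0.022 with the median of all probes and -0.032 with the deposited matrix. The interquartile range was 0.259 after normexp, and its ratio to that of equally bright NM_ probes was 0.866 after normexp and 0.766 with no filter. The share below 0 was 18.9% after normexp, 35.0% with cyclic loess, 35.5% with the median of all probes, 36.5% with the deposited matrix and 24.8% with no filter. Probes at least 2-fold higher and lower numbered 7 and 4 after normexp, 260 and 61 with no filter (2408 probes) and 20 and 5 with mean levels above -2 (537 probes). At 1.5-fold they numbered 175 and 40, and at 3-fold 5 and 5. The counts at these thresholds and with no filter stand without a share of NM_ probes beside them. Under quantile normalization, cyclic loess, both other scalings, 1 probe per accession, kept outlier spots and the deposited matrix they ran from 38 to 44 and from 12 to 16. All 43 and 12 kept their sign under the 7 settings that change the values or the spots used. Of 217 such values of the named probes measured in both hearts, 195 moved by less than 0.125 and 22 by more, and 0 of those at least 2-fold different changed sign. Dim signal limits the clones, since 77.8% of the measured probes had a mean level below the arrays' 75th percentile. No paired analysis was possible because each group had 1 array.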

Other observations

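The names of the probes carry a prefix from the manufacturer, and detection differed between prefixes. Of 1951 clone probes with the prefix A_55, 869 (44.5%) were measured, with a median log2 ratio of 0.176. Of 193 with A_66, 31.1% were measured, of 141 with A_52, 29.1%, and of 113 with A_51, 32.7%, with medians of 0.210, 0.138 and 0.076. The prefix A_65 stood on 10 clone probes, 9 of them measured, with a median of 0.045. All but 7 of the 55 clone probes at least 2-fold different had the prefix A_55 (39 higher and 9 lower). That prefix stood on 869 of the 1016 measured clone probes, a like share.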
